A study of Homo sapiens with 6 samples.

Results

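NEAT1, MALAT1, TUG1, H19 and KCNQ1OT1 are long non-coding RNAs (lncRNAs) that work in or around the nucleus. They were taken by gene name from the deposited count tables, where all 5 were found among 23228 genes, and all 5 passed the filter on low counts that left 13408 genes for testing. RNA-seq was run on HEC-1-A cells, an established line from a human endometrial adenocarcinoma. The cells received SMIP34, a small molecule that binds and inhibits the coregulator PELP1, at 20 µM for 24 h (3 libraries), or no SMIP34 (control, 3 libraries). The study's methods give vehicle for the controls, whose labels mention culture medium alone. The comparison asks which of these RNAs were higher or lower after SMIP34. Total counts on genes were between 19562711 and 22014835 per library. The labels do not say whether replicates were separate cultures, so p-values measure the spread between these libraries, which may be technical.

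NEAT1 and MALAT1 are neighbouring genes and among the most abundant nuclear lncRNAs of human cells. NEAT1 is the scaffold of paraspeckles, nuclear bodies that hold RNA-binding proteins such as NONO, SFPQ and PSPC1. A long NEAT1 transcript builds the body, while a short, polyadenylated transcript shares its 5′ end. MALAT1 gathers in nuclear speckles, which store splicing factors, and its 3′ end is made by RNase P cleavage upstream of a tRNA-like small RNA (mascRNA), leaving a genome-encoded stretch of A that folds into a triple helix in place of a poly(A) tail. TUG1 is a broadly expressed lncRNA that binds the Polycomb complex PRC2. H19 is the maternally expressed lncRNA of the imprinted IGF2 domain and carries the precursor of miR-675. KCNQ1OT1 is a paternally expressed antisense RNA within KCNQ1 that silences genes of the neighbouring imprinted domain.

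A stretch of MALAT1 around its longest run of A is shown because the libraries were made with mRNA kits. Reads from an RNA then depend on A-rich sequence as well as on its level. The stretch lies at chr11:65273529-65273621 of hg19 (plus strand, sequence from GRCh37). Capitals mark its run of 13 A, which ends 358 bases before the 3′ end of the counted exon.
MALAT1 3′ stretch: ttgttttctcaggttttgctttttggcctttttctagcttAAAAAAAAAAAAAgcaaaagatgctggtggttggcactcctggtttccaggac

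The longest run of A in the counted exons was 5 bases in NEAT1 and 4 in H19, 18 in TUG1 and 23 in KCNQ1OT1. KCNQ1OT1 had 16 runs of at least 8 A, MALAT1 2, TUG1 3, and NEAT1 and H19 0. Per kilobase of counted exon that was 0.269 in KCNQ1OT1, 0.23 in MALAT1 and 0.422 in TUG1. The part of kit selection in the levels was not tested.

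The 2 mature forms of miR-675 are shown because their precursor gene, MIR675, is counted as a row of its own inside H19. Both lie on the minus strand (RefSeq, GRCh38.p14), miR-675-5p at chr11:1996800-1996822 and miR-675-3p at chr11:1996768-1996787, and capitals mark the seed, bases 2 to 8.
hsa-miR-675-5p: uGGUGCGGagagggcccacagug
hsa-miR-675-3p: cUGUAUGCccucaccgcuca

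The seeds of both arms differ. RefSeq promoter windows (250 bases before to 50 after a start, GRCh38.p14) were matched for MALAT1, which has 2 of them, for H19 and for TUG1. Those of MALAT1 and H19 are shown since these genes had the largest tested changes in each direction. MALAT1 start A is chr11:65497488-65497787 (plus strand, GC content 73.7%), MALAT1 start B is chr11:65498795-65499094 (plus strand, 46.0%), and the H19 window is chr11:2001217-2001516 (minus strand, 57.7%). Capitals mark motif matches. On this build the H19 window lies upstream of miR-675, whose precursor is inside a counted H19 exon. It is farther from miR-675 than the 2660 bases that the counted H19 exons span. The window thus belongs to a start upstream of the counted exons, and the sequence before their own 5′ end was not searched.
MALAT1 start A: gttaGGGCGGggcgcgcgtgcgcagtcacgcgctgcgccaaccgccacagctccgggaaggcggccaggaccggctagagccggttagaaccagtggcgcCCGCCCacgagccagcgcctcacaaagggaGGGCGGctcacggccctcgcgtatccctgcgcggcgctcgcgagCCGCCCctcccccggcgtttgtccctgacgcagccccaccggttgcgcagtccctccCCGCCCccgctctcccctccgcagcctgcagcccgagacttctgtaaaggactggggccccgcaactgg
MALAT1 start B: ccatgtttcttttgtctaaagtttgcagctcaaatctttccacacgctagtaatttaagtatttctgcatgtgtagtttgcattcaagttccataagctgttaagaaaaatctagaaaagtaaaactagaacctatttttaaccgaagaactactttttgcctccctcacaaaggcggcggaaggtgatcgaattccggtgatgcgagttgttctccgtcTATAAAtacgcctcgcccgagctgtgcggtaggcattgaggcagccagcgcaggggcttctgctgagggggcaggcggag
H19 start: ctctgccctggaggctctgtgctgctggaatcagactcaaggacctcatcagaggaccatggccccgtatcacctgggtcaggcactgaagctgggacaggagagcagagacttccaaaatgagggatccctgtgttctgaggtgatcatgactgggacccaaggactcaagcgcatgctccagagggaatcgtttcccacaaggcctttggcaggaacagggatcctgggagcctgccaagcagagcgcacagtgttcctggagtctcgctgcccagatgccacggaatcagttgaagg

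Both strands were searched for 7 motifs, and matches are a description of the letters. The GC box GGGCGG, which occurs in 45.0% of 35116 RefSeq promoters, matched 5 times in MALAT1 start A. The TATA box TATAAA, found in 11.5% of promoters, matched once in MALAT1 start B, at -30. In TUG1 the CCAAT box CCAAT (34.6% of promoters) matched 2 times, the GC box 4 times and the E box CACGTG (7.26%) once. The heat shock element core GAANNTTC (6.77%), the AP-1 site TGANTCA (7.71%) and the CRE TGACGTCA (1.85%) had no match in these 4 windows. The H19 window, upstream of the counted exons, matched none of the 7 motifs.

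The count of each gene covers the exons of the UCSC hg19 annotation, which differ in how much of the locus they hold. NEAT1 (chr11, 65190269 to 65194003, plus strand) is counted over 1 exon of 3735 bases, the region of the short transcript, which is 16.4% of the GENCODE gene that extends to 65213011. Its count therefore includes reads of both transcripts from their shared 5′ part and none from the region that only the long transcript has. MALAT1 (chr11, 65265233 to 65273939, plus strand) is counted over 1 exon of 8707 bases. TUG1 (chr22, 31365634 to 31375380, plus strand) has 3 counted exons of 7104 bases in all, and GENCODE release 44 types it as protein coding while it types the other 4 genes as lncRNA. H19 (chr11, 2016406 to 2019065, minus strand) has 5 exons of 2308 bases. KCNQ1OT1 (chr11, 2661768 to 2721228, minus strand) is counted as 1 exon of 59461 bases that lies antisense to KCNQ1.

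Per counted length, NEAT1 was the most abundant of the 5 RNAs and KCNQ1OT1 the least. In RPKM, which scale the counts by the counted exon length and by library size, the control means were 72.0 ± 0.741 for NEAT1, 21.0 ± 0.571 for TUG1, 14.6 ± 0.804 for MALAT1, 4.55 ± 0.0322 for H19 and 0.0494 ± 0.00768 for KCNQ1OT1 (SD, n = 3). After SMIP34 they were 79.1 ± 1.24 for NEAT1, 21.0 ± 0.783 for MALAT1, 20.3 ± 0.404 for TUG1, 3.30 ± 0.147 for H19 and 0.0634 ± 0.00284 for KCNQ1OT1 (SD, n = 3). The RPKM of NEAT1 was above that of 91.5% of tested genes, whose median was 9.71, and KCNQ1OT1 was above only 0.246% of them.

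**Figure D1:**
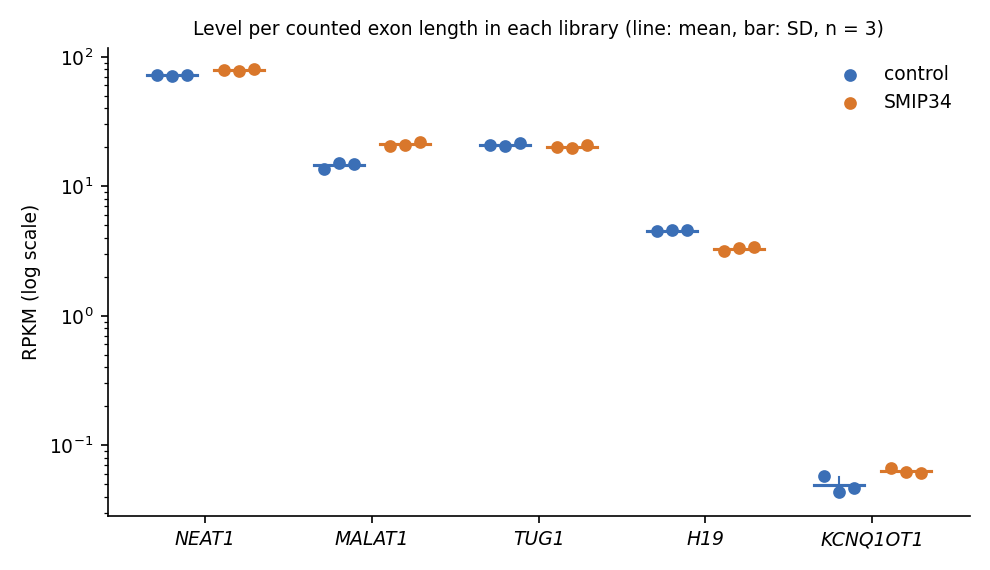
The plot shows RPKM (log scale) for the 5 lncRNAs in each library, control in blue and SMIP34 in orange, with a line at the mean and a bar for the SD (n = 3). NEAT1 lies highest in all 6 libraries, and MALAT1 moves from below TUG1 in the controls to about its level after SMIP34.

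NEAT1, H19 and KCNQ1OT1 kept their place in the order of levels per length in every library, while TUG1 and MALAT1 changed places. The per-length ratio of TUG1 to MALAT1 was between 1.35 and 1.54 in the control libraries and between 0.945 and 0.994 in the SMIP34 libraries. TUG1 thus lay above MALAT1 in the 3 controls and slightly below it in the 3 treated libraries, where the RPKM of both overlapped. NEAT1 exceeded TUG1 per length by 3.37 to 3.49 times in controls and 3.89 to 3.92 times after SMIP34. MALAT1 exceeded H19 by 3.03 to 3.33 times in controls and by 6.21 to 6.49 times after SMIP34. H19 exceeded KCNQ1OT1 by 77.7 to 105 times and by 47.1 to 55.8 times, respectively.

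MALAT1, NEAT1 and H19 differed between control and SMIP34-treated cells in the test across all genes, with MALAT1 and NEAT1 higher and H19 lower. TUG1 and KCNQ1OT1 did not pass it. An adjusted p under 0.05 was reached by 34.6% of all tested genes (17.4% higher and 17.2% lower), so reaching it is common in these data. Adding the limit of an absolute log2 fold change over 0.5 left 1.44% of tested genes higher and 1.87% lower, and MALAT1 was the 1 member of the 5 among them. The groups did not overlap in CPM (counts scaled to library size with TMM factors) for 44.5% of all genes, and for 4 of these 5 RNAs. In bulk RNA, fewer cells with a transcript and less of it per cell cannot be told apart.

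**Figure D2:**
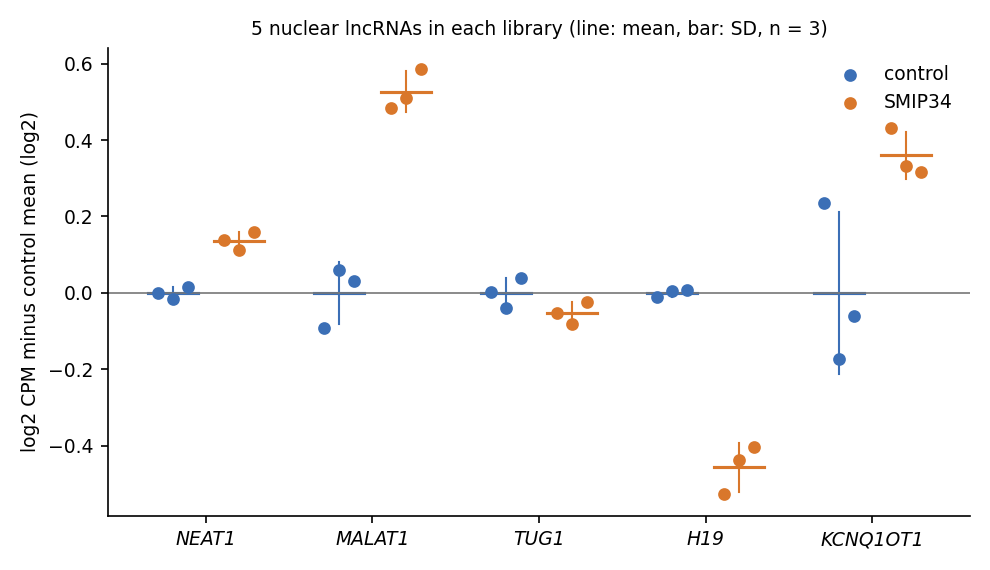
The plot shows log2 CPM minus the control mean for each lncRNA and library, control in blue and SMIP34 in orange, with a line at the mean and a bar for the SD (n = 3). MALAT1, NEAT1 and KCNQ1OT1 lie above their controls and H19 below in every treated library, while the points of TUG1 overlap.

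MALAT1, the speckle-associated RNA, had the largest change. Its CPM were 119, 132 and 130 in control replicates 1, 2 and 3 and 177, 181 and 191 in SMIP34 replicates 1, 2 and 3. Every treated library lay above every control, and control replicate 1 was the lowest. The mean rose from 127 ± 7.0 to 183 ± 6.82 CPM (SD, n = 3), a 43.8% increase. The log2 fold change was 0.52 (standard error 0.0368, 95% interval 0.45 to 0.60, edgeR quasi-likelihood test, Benjamini-Hochberg adjusted p = 1.8e-11), higher than that of 98.0% of tested genes. It stayed past the adjusted p in all 19 alternatives run, with log2 fold changes between 0.39 and 0.56. It lay under the fold limit in 5 of them, at 0.482 without control replicate 1, 0.494 without SMIP34 replicate 3, 0.419 with length offsets, 0.475 with GC offsets and 0.390 with both offsets.

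NEAT1, the paraspeckle scaffold, rose less but with little spread. Its CPM were 269, 266 and 272 in the controls and 296, 291 and 300 after SMIP34. The lowest treated library was above the highest control. The mean rose from 269 ± 2.77 to 296 ± 4.63 CPM (SD, n = 3), or by 9.90%, which is a log2 fold change of 0.14 (standard error 0.0274, 95% interval 0.08 to 0.19, edgeR adjusted p = 0.000333). The median absolute log2 fold change over all tested genes was 0.119, so a change of this size was ordinary here. The coefficient of variation among controls was 1.03%, against a median over genes of 4.63%, but 95.7% of tested genes had lower CPM. Counting alone would give 1.34%, so the spread of the NEAT1 controls understates the error.

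The pair did not rise in proportion, and the ratio of their counts within a library does not depend on the scaling between libraries. There were 2.26, 2.01 and 2.09 NEAT1 counts per MALAT1 count in the controls, and 1.67, 1.61 and 1.58 after SMIP34. Every treated library had a lower ratio than every control, with means of 2.12 ± 0.126 and 1.62 ± 0.0463 (SD, n = 3). The log2 ratio differed by -0.39 (exact two-sided permutation test, p = 0.1, the smallest p that 20 relabellings of 3 against 3 allow). Both genes together took 0.0385, 0.0394 and 0.0401% of all counts in the controls and 0.0476, 0.0475 and 0.0494% after SMIP34 (exact two-sided permutation test, p = 0.1). The share was higher in all 3 treated libraries.

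TUG1, the PRC2-binding lncRNA, gave the nearest to equal values of the 5. Its CPM were 149, 145 and 153 in the controls and 144, 141 and 147 after SMIP34. The groups overlapped, since SMIP34 replicate 3 was above control replicate 2. The log2 fold change was -0.05 with a 95% interval of -0.12 to 0.01 (edgeR adjusted p = 0.22), which does not show that TUG1 stayed the same. With length offsets it was -0.134 (adjusted p = 0.000565), with GC offsets -0.096 (adjusted p = 0.0177) and with both -0.161 (adjusted p = 3.75e-05), all by edgeR's quasi-likelihood test.

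H19, the imprinted lncRNA that hosts miR-675, was the member that fell. Its counts were 202, 229 and 219 in the controls and 159, 167 and 171 after SMIP34, or 10.4, 10.5 and 10.5 CPM against 7.25, 7.72 and 7.90 CPM. All treated libraries lay below all controls. The mean fell from 10.5 ± 0.0744 to 7.62 ± 0.340 CPM (SD, n = 3). This is a log2 fold change of -0.46 (standard error 0.0980, 95% interval -0.65 to -0.27, edgeR adjusted p = 0.000591). The control replicates varied by 0.709%, less than the 6.79% that counting alone would give, so their spread understates the error of a gene with so few counts. Under the alternatives the log2 fold change was between -0.49 and -0.35, past the adjusted p in 19 of 19 and past the fold limit in none.

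MIR675, the 73-base miRNA precursor inside an H19 exon, had 32, 33 and 42 counts in the controls and 23, 19 and 24 after SMIP34. All treated values were below all controls. These are the same fragments that were counted for H19, of which they made 11.4 to 19.2%, and they do not measure the mature miRNAs shown above. Its log2 fold change of -0.77 (edgeR adjusted p = 0.0209) is therefore no separate evidence on H19, and it lost the call at -0.637 without control replicate 3 (adjusted p = 0.0945) and at -0.677 without SMIP34 replicate 2 (adjusted p = 0.0843). DESeq2 did not call it either, at -0.772 (adjusted p = 0.0702), or at -0.236 with a normal prior (adjusted p = 0.0703).

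KCNQ1OT1, the imprinted antisense RNA, was close to the limit of the depth. It had 67, 56 and 58 counts in the controls and 87, 80 and 79 after SMIP34, at 0.942 to 1.46 counts per kilobase of its counted interval. In CPM these were 3.45, 2.58 and 2.79 against 3.96, 3.70 and 3.65, and the groups did not overlap. The means were 2.94 ± 0.456 and 3.77 ± 0.169 CPM (SD, n = 3). The log2 fold change of 0.37 had a 95% interval of 0.04 to 0.69 and did not pass the edgeR test after adjustment over all genes (adjusted p = 0.0874). Without control replicate 1, its highest control, the value was 0.493 (edgeR adjusted p = 0.0484), and with length offsets 0.025 (edgeR adjusted p = 0.932). KCNQ1, on the opposite strand, had 45, 71 and 73 counts in the controls and 84, 84 and 66 after SMIP34, with overlapping groups (log2 fold change 0.23, edgeR adjusted p = 0.329). Counting used the strand, so reads of KCNQ1 and KCNQ1OT1 were kept apart as far as the library kept strand.

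Fold changes varied with the length of genes across the whole table. With genes in 10 equal groups by counted length, the median log2 fold change was -0.10 in the shortest group and 0.12 in the longest, from 6891 bases. MALAT1, TUG1 and KCNQ1OT1 were in the longest group, NEAT1 in group 7 (median 0.03) and H19 in group 4 (median -0.03). In the longest group, 3.21% of genes had a log2 fold change at or above that of MALAT1, and in group 4, 5.15% had one at or below that of H19. Medians by GC content ran from 0.06 in the lowest group of 10 to -0.05 in the highest, with MALAT1 and TUG1 in group 2 and H19 in group 10. The part of length and GC content in the members' values was not tested beyond the offsets given above.

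**Figure D3:**
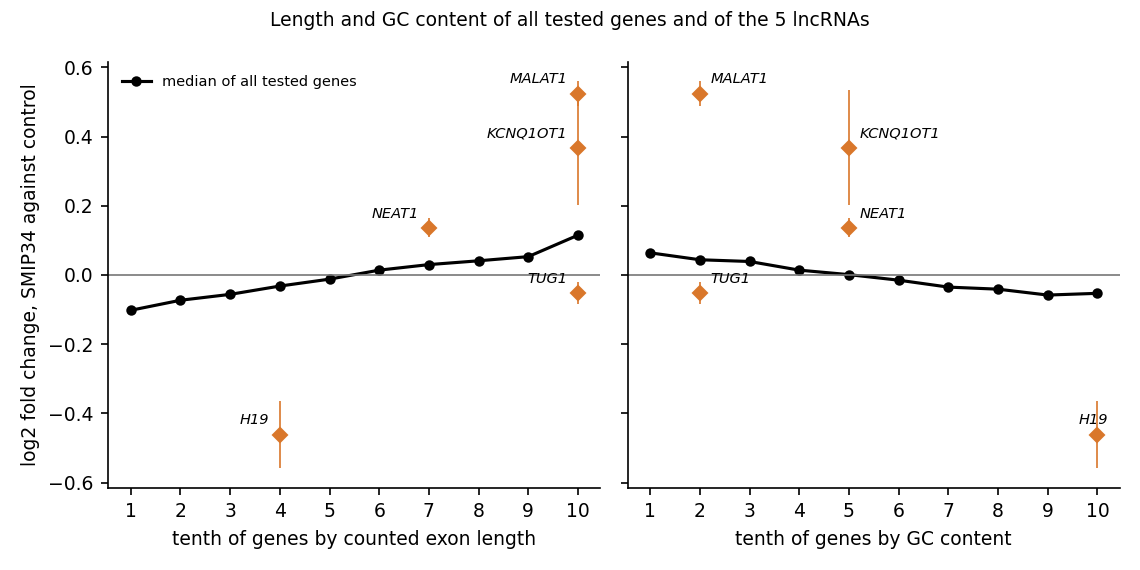
The plot shows the median log2 fold change (black) of all tested genes in 10 equal groups by counted exon length (left) and GC content (right), with the 5 lncRNAs as orange diamonds and bars for their standard errors. The median climbs from -0.10 to 0.12 with length, and MALAT1 lies above and H19 below the median of its own group in both panels.

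NEAT1 and MALAT1 lie 71.2 kb apart on the same strand, and the genes around them did not all rise with them. Of 20 other genes within 200 kb of either that are reported here, 16 were tested, of which 4 rose and 3 fell (adjusted p under 0.05), against 17.4% and 17.2% of all genes. The median log2 fold change was 0.06, against -0.00219 over all tested genes. RELA, a subunit of NF-κB, rose by 0.18 (standard error 0.0390, edgeR adjusted p = 0.000641), FAM89B by 0.27, EHBP1L1 by 0.13 and SSSCA1 by 0.23, the last losing its call without control replicate 2 (0.198, edgeR adjusted p = 0.0596). FRMD8, 9.3 kb from NEAT1 on the same strand, fell by 0.22 (edgeR adjusted p = 0.000253), from 63.8 ± 2.03 to 54.9 ± 1.64 CPM (SD, n = 3). SLC25A45, a mitochondrial carrier gene, fell by 0.55 (edgeR adjusted p = 3.88e-06), from 17.6 ± 0.369 to 12.0 ± 0.558 CPM (SD, n = 3), and was the 1 neighbour past both thresholds. LTBP3, which encodes a TGF-β binding protein, fell by 0.13, a call lost without SMIP34 replicate 3 (-0.105, edgeR adjusted p = 0.0554). MIR612, between both lncRNAs, had 15 counts in all 6 libraries together and was not tested.

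**Figure D4:**
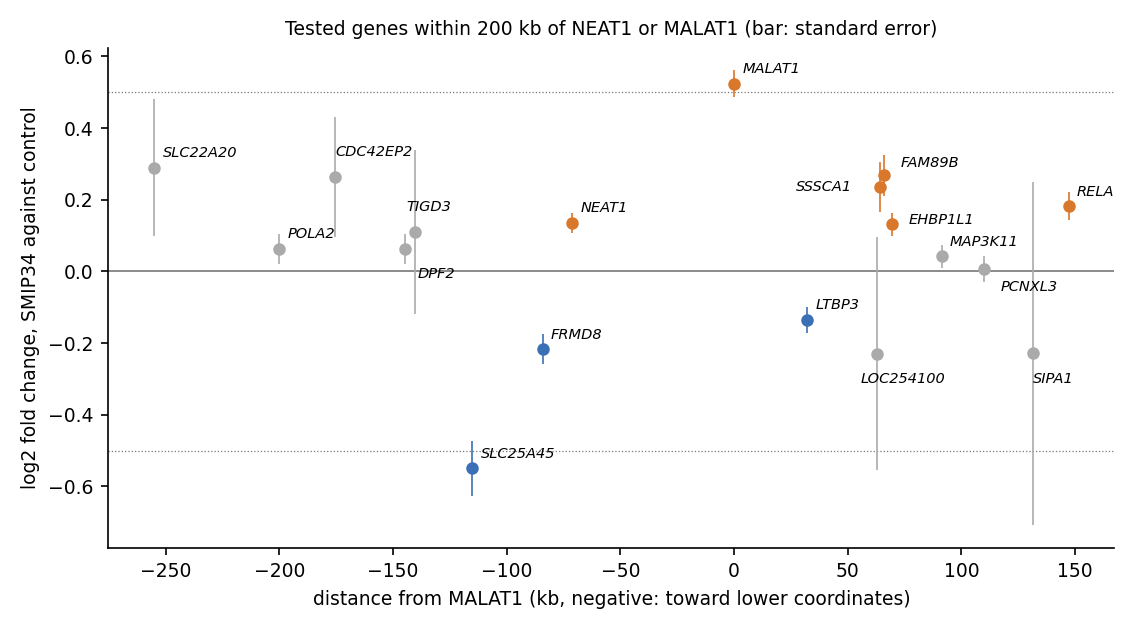
The plot shows the log2 fold change of the tested genes reported here within 200 kb of NEAT1 or MALAT1 against their distance from MALAT1 in kilobases, with bars for the standard error, orange and blue for higher and lower at an adjusted p under 0.05, grey for the rest, and dotted lines at the fold limit of 0.5. MALAT1 is the highest point and SLC25A45 the lowest, and genes of both directions lie around NEAT1 and MALAT1.

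Of the tested neighbours of the other 3 lncRNAs, 1 of 6 near TUG1 was higher, and 2 of 5 near H19 and 2 of 4 near KCNQ1OT1 were lower (adjusted p under 0.05), beside 17.4% higher and 17.2% lower over all tested genes. The 2 near H19 were MRPL23 and MIR675, whose reads are also counted for H19 and are no separate evidence. MORC2, a chromatin ATPase gene that lies 1.4 kb from TUG1 on the opposite strand, rose from 30.0 ± 0.357 to 35.9 ± 0.480 CPM (SD, n = 3; log2 fold change 0.26, edgeR adjusted p = 0.000365), while the other 5 tested genes near TUG1 did not pass the test. Near H19, IGF2, the growth factor gene of the same imprinted domain, was at 0.547 ± 0.0442 CPM in controls and 0.843 ± 0.428 CPM after SMIP34 (SD, n = 3; log2 fold change 0.61, edgeR adjusted p = 0.24), and the groups overlapped. Its reads are counted again in the readthrough gene INS-IGF2. MRPL23, a mitochondrial ribosome gene beside H19, fell by 0.12 (edgeR adjusted p = 0.0137), a value that was 0.023 with length and GC offsets and lost the call without control replicate 2 (-0.098) or SMIP34 replicates 1 (-0.099) or 2 (-0.115). Near KCNQ1OT1, SLC22A18AS fell by 0.64 (edgeR adjusted p = 1.4e-05) and SLC22A18, a transporter gene on the opposite strand, by 0.22 (edgeR adjusted p = 0.000254). CDKN1C, a cell cycle inhibitor gene silenced by KCNQ1OT1 on the paternal copy, had 15.4 ± 0.142 and 15.2 ± 1.51 CPM (SD, n = 3; edgeR adjusted p = 0.936).

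Of 19 genes of the imprinted region at 11p15.5, 11 were tested, and 5 others had no count in any library. Whether each of them is imprinted in these cells was not tested. At an adjusted p under 0.05, 4 were lower and 0 higher. That is 36.4% lower, against 17.2% of all tested genes. The median log2 fold change of -0.01 was between -0.045 (without SMIP34 replicate 2) and 0.07, and lay above 0 with library size scaling (0.008), length offsets (0.036), GC offsets (0.039), both offsets (0.065) and without SMIP34 replicate 3 (0.07). The number higher was 1 without control replicate 2 or SMIP34 replicate 2 or 3. It was also 1 with library size scaling, length offsets or GC offsets, and 2 with both offsets. The number lower was 3 with any of these offsets and by DESeq2 with or without a normal prior. It was 3 as well without control replicate 2 or 3 or SMIP34 replicate 2 or 3. The 4 that fell were SLC22A18AS, SLC22A18, CD81 and MIR675, whose reads are also counted for H19. CD81 had overlapping groups and lost its call without control replicate 2 (-0.079), without SMIP34 replicate 3 (-0.097) and with length (-0.046), GC (-0.062) or both offsets (-0.016). In this list the extremes were INS-IGF2 at 0.66, which did not pass the test (edgeR adjusted p = 0.209), and MIR675.

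Among 31 paraspeckle protein genes, 7 rose and 7 fell (adjusted p under 0.05), or 22.6% each way, near the 17.4% and 17.2% of all tested genes. Over the alternatives the median log2 fold change of 0.02 was between -0.006 (GC offsets) and 0.036 (library size only), at 0.030 without control replicate 1 and 0.001 without SMIP34 replicate 1. The number higher was 3 without SMIP34 replicate 2 and 4 without SMIP34 replicate 3. The core proteins were not among the changed genes: NONO went from 406 ± 4.33 to 422 ± 10.9 CPM (edgeR adjusted p = 0.105), SFPQ was at 232 ± 4.38 and 232 ± 1.75 CPM (edgeR adjusted p = 0.958) and PSPC1 at 46.0 ± 3.37 and 44.8 ± 2.95 CPM (edgeR adjusted p = 0.63; SD, n = 3 for each). RBM3, a cold-inducible RNA-binding protein gene, fell most, from 179 ± 1.83 to 133 ± 2.25 CPM (SD, n = 3; log2 fold change -0.43, edgeR adjusted p = 2.21e-11), and RBM12 rose most, by 0.22 (edgeR adjusted p = 2.51e-05). EWSR1, an RNA-binding protein gene of the FET family, rose by 0.14 (edgeR adjusted p = 0.000148).

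Among 26 genes of nuclear speckle and MALAT1-binding proteins, 10 (38.5%) were higher and 3 (11.5%) lower, against 17.4% and 17.2% of all tested genes. The median log2 fold change was 0.08. The number lower was 1 without SMIP34 replicate 1 and 5 with length offsets, GC offsets or both. With these offsets 11, 11 and 10 were higher. The speckle scaffold genes led: SRRM2 rose from 231 ± 14.2 to 288 ± 8.32 CPM (SD, n = 3; log2 fold change 0.32, edgeR adjusted p = 6.93e-08) and SON from 217 ± 0.671 to 270 ± 1.68 CPM (SD, n = 3; log2 fold change 0.32, edgeR adjusted p = 1.27e-09). Their counted exons, of 9353 and 9203 bases, put both in the longest group with MALAT1, and over all alternatives, length offsets included, their log2 fold changes were between 0.202 and 0.360 and between 0.191 and 0.334. HNRNPC, an m6A-dependent binder of MALAT1, fell by 0.13 (edgeR adjusted p = 0.000148). DDX39B had the lowest value, -0.36, at only 5.0 ± 2.14 and 3.91 ± 0.951 CPM (SD, n = 3) over 16323 counted bases. It did not pass the test (edgeR adjusted p = 0.196), and its sign turned without control replicate 3 (0.047).

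Of the 19 genes of MALAT1 3′ end processing and m6A, 1 (5.26%) was higher and 1 (5.26%) lower, against 17.4% and 17.2% of all tested genes. These were YTHDF2, an m6A reader gene, higher at 0.09 (edgeR adjusted p = 0.0347), and POP4, an RNase P subunit gene, lower at -0.15 (edgeR adjusted p = 0.0248). Each lost its call when 1 library was left out, POP4 without control replicate 1 (-0.105) or SMIP34 replicate 1 (-0.106) and YTHDF2 without control replicate 1 (0.101) or 3 (0.077) or any 1 SMIP34 library (0.088 to 0.103). RPPH1, the RNA subunit of RNase P, was at 3.08 ± 1.91 and 5.60 ± 5.79 CPM (SD, n = 3; log2 fold change 0.84, edgeR adjusted p = 0.146), and its value was -0.458 without SMIP34 replicate 1 and 1.291 without SMIP34 replicate 2 (edgeR adjusted p = 0.00958). Of 12 genes that bear on NEAT1 3′ end choice and stability, 4 (33.3%) were higher and 2 (16.7%) lower, against 17.4% and 17.2% of all tested genes, with a median of 0.05 that was 0.027 with GC offsets and 0.023 with both offsets. The number higher was 2 without control replicate 1 or SMIP34 replicate 3, and the number lower was 1 without control replicate 2 or SMIP34 replicate 1 or 3. NUDT21 and CPSF6, the CFIm subunits that favour the short NEAT1 transcript, had log2 fold changes of 0.03 and -0.02 (edgeR adjusted p = 0.551 and 0.658), and HNRNPK, which favours the long one, 0.03 (edgeR adjusted p = 0.326). The extremes were SKIV2L2, an exosome helicase gene, at 0.14 and CPSF3L, an Integrator subunit gene, at -0.13.

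Of 16 transcription factor genes known to act on NEAT1 or MALAT1, 6 were higher at an adjusted p under 0.05 (17.4% of all tested genes were), and 3 with length offsets. This list is not reported in full here, so its count of lower genes and its median would mislead and are left out. IRF1, an interferon-regulated factor, was the 1 past both thresholds, from 24.3 ± 0.775 to 35.3 ± 1.76 CPM (SD, n = 3; log2 fold change 0.54, edgeR adjusted p = 4.99e-08). RELA (above) and STAT3, at 0.18 (edgeR adjusted p = 0.000256), also rose. HIF1A and HSF1, the hypoxia and heat shock factors, had values of 0.06 and -0.02 (edgeR adjusted p = 0.118 and 0.656).

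**Figure D5:**
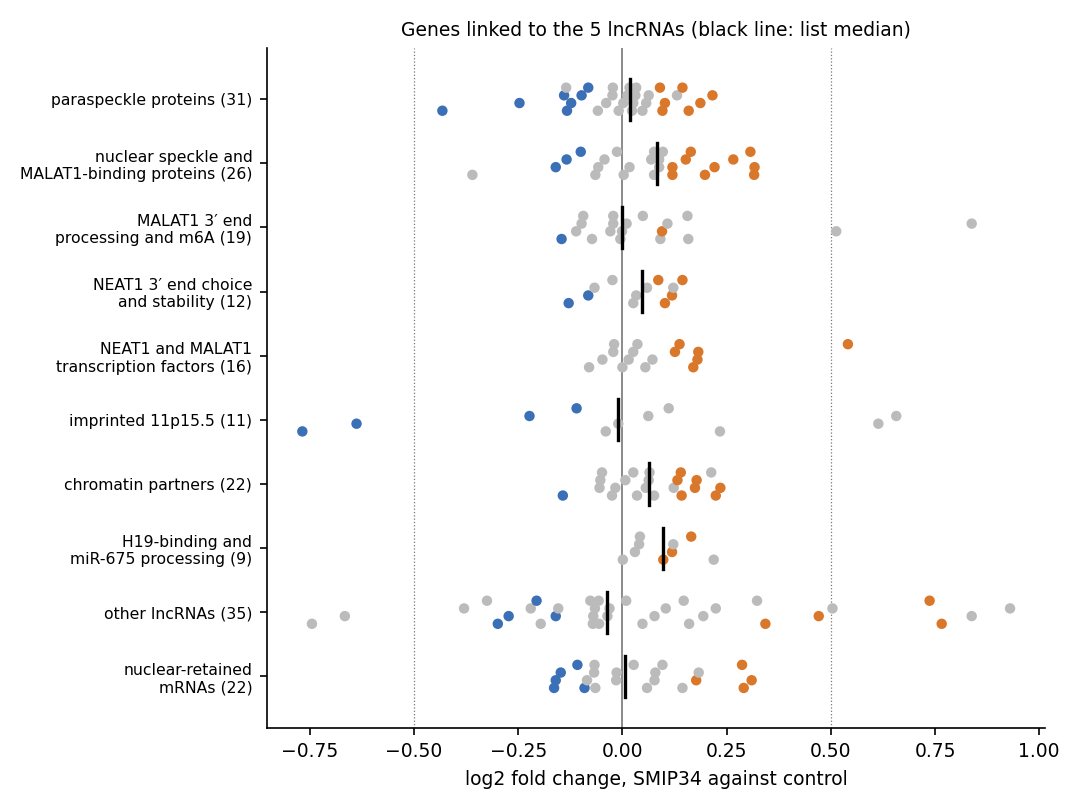
The plot shows the log2 fold change of each tested gene reported here in 10 lists linked to the 5 lncRNAs, with the number tested in parentheses, black lines at list medians, orange and blue for higher and lower at an adjusted p under 0.05, grey for the rest, and dotted lines at the fold limit of 0.5. The medians of 9 lists lie between -0.04 and 0.10 (none is drawn for the transcription factors, a list not reported in full), and few genes pass the dotted lines.

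Among 22 tested genes of chromatin partners of KCNQ1OT1, TUG1 and H19, 7 (31.8%) were higher and 1 (4.55%) lower, against 17.4% and 17.2% of all tested genes. The median log2 fold change of 0.06 was 0.028 without control replicate 2, 0.030 with length offsets, where 3 were lower, and 0.021 with both offsets. RCOR1 and KDM1A, of the CoREST complex, rose by 0.23 and 0.18 (edgeR adjusted p = 0.000218 and 0.000145). EZH2, the PRC2 methyltransferase gene, had 43.8 ± 1.30 and 45.5 ± 0.473 CPM (SD, n = 3; edgeR adjusted p = 0.374). EZH1 had the lowest value, at -0.14, and lost its call in 11 of 19 alternatives, among them those without control replicate 1 (-0.114) or 3 (-0.141) or SMIP34 replicate 1 (-0.095) or 2 (-0.158). Of 9 genes of H19-binding and miR-675 processing proteins, 3 (33.3%) were higher and 0 lower, against 17.4% and 17.2% of all tested genes. The median of 0.10 was 0.063 without control replicate 2, 0.058 with length offsets and 0.046 with both offsets. IGF2BP2, a binder of H19, rose from 139 ± 1.94 to 155 ± 3.38 CPM (SD, n = 3; log2 fold change 0.16, edgeR adjusted p = 0.000184), while IGF2BP1 (0.22, edgeR adjusted p = 0.423) and IGF2BP3 (0.00, edgeR adjusted p = 0.994) did not pass the test.

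Of 65 other lncRNAs looked for by name, 52 were in the tables and 35 were tested, of which 4 rose and 4 fell (adjusted p under 0.05), or 11.4% each way against 17.4% and 17.2% of all tested genes. The median log2 fold change of -0.04 was -0.015 without control replicate 1, -0.005 without control replicate 2, -0.021 without SMIP34 replicate 2, 0.048 with length offsets and 0.028 with length and GC offsets. The number higher was 2 without control replicate 2 or SMIP34 replicate 1. EGOT rose from 1.79 ± 0.0413 to 3.05 ± 0.460 CPM (SD, n = 3; log2 fold change 0.77, edgeR adjusted p = 0.0034). C17orf91, the host transcript of miR-22 (MIR22HG), rose from 1.91 ± 0.457 to 3.21 ± 0.691 CPM (SD, n = 3; log2 fold change 0.74, edgeR adjusted p = 0.00777) and lost the call without control replicate 1 (0.567) or SMIP34 replicate 2 (0.566). These were the 2 past both thresholds. The small nucleolar RNA host gene SNHG8 fell from 43.5 ± 3.03 to 36.0 ± 1.62 CPM (SD, n = 3; log2 fold change -0.27, edgeR adjusted p = 0.000309). RMRP had the highest value, 0.93, and MIAT the lowest, -0.74, and neither passed the test (edgeR adjusted p = 0.195 and 0.143). The value of RMRP was -1.061 without SMIP34 replicate 1 and 1.446 without SMIP34 replicate 2.

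Of 22 mRNAs and RNA-binding genes with nuclear-retained transcripts, 4 (18.2%) were higher and 5 (22.7%) lower, near the 17.4% and 17.2% of all tested genes. The median log2 fold change of 0.01 was between -0.049 (both offsets) and 0.045 (without SMIP34 replicate 1) over the alternatives, and at -0.016 without control replicate 1. The number higher was 2 without SMIP34 replicate 2 or 3, and the number lower was 3 without control replicate 2 or SMIP34 replicate 3 and 1 without SMIP34 replicate 1. SRSF7, a splicing factor gene, fell by 0.16 (edgeR adjusted p = 0.000245). ANKRD36 had the highest value, 0.31 (edgeR adjusted p = 0.0313), with overlapping groups, and lost its call in 9 of 19 alternatives, among them those without control replicate 1 (0.201) or 2 (0.323) or SMIP34 replicate 1 (0.241) or 3 (0.258).

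Genes whose 6 values followed each member most closely were ranked by the root mean square (RMS) difference of log2 CPM, each gene centred on its control mean, over 9910 genes whose mean reached 10 CPM. For MALAT1 these were RND3 (RMS difference 0.0408), SQSTM1, IRF1, PRRC2C and HSPA5 (0.0528), against a median of 0.377 over the genes compared. For NEAT1 they were PTPN12 (0.00801), RAD23B, PTP4A1, MAPK6 and PLEKHB2 (0.0142), with a median of 0.12. The genes nearest to H19 were PSAT1 (0.0390), SCIN, UGT2B7, ADAMTS15 and PCK2 (0.0466), with a median of 0.333. TUG1 was nearest to YIPF2 (0.00982), MBP, BTBD2, DAZAP2 and C17orf85 (0.0136), and KCNQ1OT1 to BCORL1 (0.0602), ZNF281, WDR67, NAA16 and C3orf52 (0.0696). The 6 values share the libraries and their scaling, and genes with a like difference between the groups rank close together whatever their function.

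The labelled cell type was checked with markers. All 8 epithelial markers were tested, with summed levels of 3840 to 3960 CPM in controls and 3790 to 3820 CPM after SMIP34, of which KRT8, KRT19 and MUC1 were lower and CLDN4 higher (edgeR adjusted p = 0.000809, 1.54e-05, 0.0167 and 2.45e-06). MUC1 lost its call without control replicate 2 (-0.277), without SMIP34 replicate 3 (-0.261), with both offsets (-0.237) and by DESeq2 (-0.317), and KRT8 with both offsets (-0.035). Without control replicate 3, 5 were lower. Of 8 stromal markers, 4 were tested and summed levels of all 8 were 9.57 to 10.3 and 9.34 to 10.0 CPM. LUM was at 0 in all libraries, and COL1A1 rose from 2.96 ± 0.218 to 4.19 ± 0.346 CPM (SD, n = 3; edgeR adjusted p = 0.0151), a call lost without control replicate 2 (0.441) or SMIP34 replicate 3 (0.443). Of 8 immune and endothelial markers, 1 was tested, summed levels were 1.15 to 1.49 and 1.20 to 1.46 CPM, CD3E was at 0 and PTPRC had 1 count in all libraries together.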

How the data were processed

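The 6 libraries (3 control, 3 SMIP34) were grouped by their labels, and all of them were used. The authors deposited estimated counts, that is, fractional read counts per gene without normalization. Per the file headers, featureCounts 1.5.0-p1 added up the reads on annotated exons (UCSC genes, hg19) per gene and strand, above a mapping quality of 2, with reads that mapped to several places divided into fractions. Of 266 values above 0 of genes that lie inside an exon of another gene, 264 were whole numbers, so reads in overlapping genes were taken as counted in full for each gene. The submitters' processing notes name bcl2fastq, HISAT2 and SAMtools, while the methods of the study name tophat2 and HTSeq. The labels name mRNA kits of more than 1 maker without saying which library was made with which.

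The deposited counts were rounded to whole numbers. After edgeR's filterByExpr function and TMM scaling (factors 0.9882 to 1.007), the groups were tested in edgeR 4.0.16 (R 4.3.3) by quasi-likelihood, without a replicate block, and p-values were adjusted by Benjamini-Hochberg over the 13408 tested genes. CPM are TMM-scaled, RPKM use the counted exon length in the tables, and log2 CPM have a prior count of 2. The thresholds were an adjusted p of 0.05 and an absolute log2 fold change of 0.5. The members, the gene lists and the alternatives were chosen with earlier results of these data known, so list counts and medians are descriptions. Genes named are the members, those within 200 kb of them, the extremes and the called genes of each list, the best-known partners, and the 5 most alike genes of each member. A few genes are not reported here and do not enter the counts of lists and neighbours. Other genes named, such as EWSR1, SNHG8, SRSF7, STAT3, HIF1A, RCOR1 and the markers, were picked with their values in view.

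Results were recomputed with limma 3.58.1 voom, with DESeq2 1.42.0 (also with a normal prior), under other scalings, filters and thresholds, by edgeR's legacy method, blocking on the replicate number, with loess offsets on gene length (span 0.3), and leaving out each library. Offsets on GC content, alone and with length, were added after seeing the data. The fits were tested on simulated data. Gene coordinates are of hg19, GENCODE release 44 on GRCh37 served for annotation, and promoter and miRNA sequences are from RefSeq (GRCh38.p14).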

Additional observations from a re-analysis of the deposited data

How the results depend on the processing

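NEAT1, MALAT1, TUG1, H19 and KCNQ1OT1 kept the sign of their log2 fold change in the 19 alternatives run for each, and NEAT1, MALAT1 and H19 stayed past the adjusted p in every one. NEAT1 was between 0.11 and 0.16. TUG1, which did not pass the test, passed it with length offsets (-0.134), GC offsets (-0.096) and both (-0.161). KCNQ1OT1 lay between 0.279 and 0.493 with 1 library left out and passed the test at the upper value, without control replicate 1. With 1 library left out MALAT1 was between 0.482 and 0.555, H19 between -0.487 and -0.425, the genes past both thresholds numbered 389 to 448 and those past the adjusted p alone 3707 to 4647. The number of genes past both thresholds, 444, was 117 by DESeq2 with a normal prior, 323 by DESeq2 without it and 104 with a fold limit of 1. With library size as the only scaling 50.0% of them were higher, against 43.5%. The rise in the share of all counts on NEAT1 and MALAT1 was 0.0101 percentage points without the 100 genes of highest count, against 0.0088. With the replicate number as a block, 453 genes were past both thresholds, MALAT1 was at 0.526, and no member's call changed. The deviations of libraries with the same number had correlations of -0.028, 0.033 and -0.011, which gives no sign that equal numbers mark pairs. The depth limits KCNQ1OT1, at 56 to 87 counts per library, and H19, at 159 to 229. The cause of the differences between settings was not tested.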
